A study of Mus musculus with 21 samples.

Results

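The regions described here are the 10000 open chromatin regions with the highest deposited score among the 49627 that the authors listed as specific to the CD34 SP population of mouse colon stroma on chromosomes 1 to 19 and X. They made up 20.2% of those specific regions and 6.97% of the 143393 regions in the full CD34 SP list, and they covered 3.17 Mb. They were chosen by that score alone, so scores are given as a description only. The lowest score inside the set was 0.053345 and the highest outside it was 0.053343. The median score was 0.0644 in the set, 0.0403 in the other specific regions and 0.117 in the CD34 SP regions outside the specific list. Those outside it are called shared with another population here, and their overlap was not computed. Of all CD34 SP regions, 40.0% scored below the lowest member.

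The study profiled open chromatin by ATAC-seq in 4 sorted populations named CD34 SP, MRISC, CD34-CD138+ (called CD138 here) and Myofibroblast, with 2 libraries each from male C57BL/6 mice of 12 weeks. No genotype or treatment is given for these mice in the labels. The cells were collagenase-released colon cells negative for CD45, Epcam and CD31 and positive for gp38, the product of Pdpn, and the sources used here do not give the further antibodies of each subset. A separate 10x Genomics 3' library held gp38+CD90+ colon cells of wild type female C57BL/6 mice of 12 weeks on D3 of 2% DSS, a sulfated polysaccharide given in the drinking water that injures the colon epithelium, and supplied the transcript levels. The sexes differed, and whether the treatments did is not known from the labels. Chromatin and transcripts were therefore not measured in the same cells. Each population had 1 deposited list made from its 2 libraries, which leaves no measure of spread among libraries, and read depth is unknown. Bulk colon RNA from 12 further mice, Map3k2-/- and wild type, was not analysed here.

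ATAC-seq uses a transposase that inserts sequencing adapters where DNA is not wrapped around nucleosomes, and open regions mark promoters and distal elements such as enhancers. Regions open in 1 cell type and closed in its relatives are mostly distal elements, which are bound by combinations of transcription factors. In fibroblasts, the AP-1 family, dimers of Fos and Jun proteins, is a widespread occupant of such elements, and E-box words are bound by basic helix-loop-helix factors such as Twist and Tcf21. Colon fibroblasts lie beneath the epithelium, build the matrix and supply Wnt, BMP and R-spondin signals to the intestinal stem cells.

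The sequences below show the regions that the results on genes and words turn on. They are the highest-scored region of at most 300 bp for each of the 6 genes that were nearest to most regions, followed by the highest-scored one of that size in a promoter. A region near Tjp1, which encodes a tight junction protein, was added after the values were seen because it holds both words. They were read from the plus strand of GRCm38 (the assembly of mm10), and capitals mark the AP-1 word TGAGTCA or its reverse complement and the E-box CAGCTG.
Arid5b, chr10:68115576-68115874: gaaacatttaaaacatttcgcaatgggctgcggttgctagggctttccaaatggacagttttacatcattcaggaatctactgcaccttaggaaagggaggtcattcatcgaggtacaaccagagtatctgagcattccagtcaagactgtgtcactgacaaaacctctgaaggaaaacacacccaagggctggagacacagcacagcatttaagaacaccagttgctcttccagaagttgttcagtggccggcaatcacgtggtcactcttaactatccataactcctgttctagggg
Spdye4c, chr2:128376091-128376381: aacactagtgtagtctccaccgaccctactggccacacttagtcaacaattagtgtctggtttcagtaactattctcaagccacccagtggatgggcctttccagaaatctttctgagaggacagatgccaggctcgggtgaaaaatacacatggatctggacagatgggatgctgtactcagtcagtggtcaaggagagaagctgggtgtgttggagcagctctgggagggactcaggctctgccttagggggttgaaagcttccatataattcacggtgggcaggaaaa
Col5a1, chr2:28030892-28031157: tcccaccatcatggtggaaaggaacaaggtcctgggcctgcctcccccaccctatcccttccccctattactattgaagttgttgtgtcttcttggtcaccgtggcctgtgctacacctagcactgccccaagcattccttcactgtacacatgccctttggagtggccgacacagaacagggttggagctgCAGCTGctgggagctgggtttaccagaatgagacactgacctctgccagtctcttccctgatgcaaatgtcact
Zeb2, chr2:45111504-45111796: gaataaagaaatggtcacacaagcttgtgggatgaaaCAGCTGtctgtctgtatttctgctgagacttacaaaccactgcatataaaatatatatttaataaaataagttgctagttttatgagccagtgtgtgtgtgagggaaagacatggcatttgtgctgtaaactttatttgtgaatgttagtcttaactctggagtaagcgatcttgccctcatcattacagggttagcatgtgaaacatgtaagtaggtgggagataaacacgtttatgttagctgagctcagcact
Ext1, chr15:53114659-53114918: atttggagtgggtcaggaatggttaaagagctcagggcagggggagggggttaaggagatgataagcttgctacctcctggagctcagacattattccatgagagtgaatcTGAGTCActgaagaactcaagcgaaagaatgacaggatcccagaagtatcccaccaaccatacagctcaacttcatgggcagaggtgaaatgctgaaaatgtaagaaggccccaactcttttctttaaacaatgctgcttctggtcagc
Zfp36l1, chr12:79846333-79846553: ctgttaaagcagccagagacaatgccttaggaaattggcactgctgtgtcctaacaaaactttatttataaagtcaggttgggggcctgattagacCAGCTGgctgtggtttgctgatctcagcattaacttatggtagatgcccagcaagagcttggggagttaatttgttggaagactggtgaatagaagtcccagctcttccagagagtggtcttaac
Rmnd5a, chr6:71399299-71399569: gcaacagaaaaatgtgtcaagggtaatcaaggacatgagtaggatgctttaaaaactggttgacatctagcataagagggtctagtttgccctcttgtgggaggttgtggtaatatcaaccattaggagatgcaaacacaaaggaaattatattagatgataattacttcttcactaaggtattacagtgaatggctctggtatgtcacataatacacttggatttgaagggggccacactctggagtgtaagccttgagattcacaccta
Tjp1, chr7:65360367-65360642: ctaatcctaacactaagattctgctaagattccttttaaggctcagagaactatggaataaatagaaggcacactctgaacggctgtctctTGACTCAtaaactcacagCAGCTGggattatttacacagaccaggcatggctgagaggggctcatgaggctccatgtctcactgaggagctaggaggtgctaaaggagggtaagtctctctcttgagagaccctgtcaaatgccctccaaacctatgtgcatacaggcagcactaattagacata
The regions of Arid5b, Spdye4c and Rmnd5a held neither word over their whole length. Word shares over all regions were counted in the central 200 bp only, where 67.5% of the 10000 regions held neither word. The E-box shown for Zeb2 lies outside that central window and is not in those counts. The region of Ext1 held the AP-1 word in an intron 231 kb from the start. The region of Zeb2 lay 476 bp upstream of a Zeb2 start and that of Rmnd5a lay 141 bp upstream, and these were the promoter examples. The region of Col5a1 lay in an intron 13.6 kb from the start with 1 E-box, and that of Zfp36l1 was intergenic, 267 kb beyond the start, also with 1 E-box. Both words were present in the central 200 bp of 2.46% of the 10000 regions.

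Most of the regions were distal. A promoter, here within 1 kb of a protein-coding transcript start, held 568 of the 10000 (5.68%), against 4.94% of the other CD34 SP specific regions and 17.6% of the shared CD34 SP regions. The 10000 strongest specific regions of the other populations had promoter shares of 4.83% in MRISC, 4.82% in CD138 and 2.89% in Myofibroblast. Introns of coding genes held 49.4% of the CD34 SP set, exons 6.27%, and 38.7% lay between genes. The median distance to the closest coding start was 19.8 kb in the set, with an interquartile range of 5196 to 60357 bp, against 28.4 kb in MRISC, 29.0 kb in CD138 and 35.8 kb in Myofibroblast. In the CD34 SP list itself the other specific regions had a median of 21623 bp and the shared ones of 15968 bp. The set therefore lay closer to coding starts than the equally large sets of the other populations. The sets were unequal parts of their specific lists, which held 49627 regions in CD34 SP, 82513 in MRISC, 126532 in CD138 and 112840 in Myofibroblast. This holds for every comparison of the 4 sets, and its effect was not tested. Between 1 and 10 kb lay 30.6% of the CD34 SP set, against 22.9%, 21.8% and 20.8% in MRISC, CD138 and Myofibroblast. Beyond 100 kb lay 16.2% of it, against 22.3%, 23.95% and 28.1% in the same 3 sets.

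**Figure D1:**
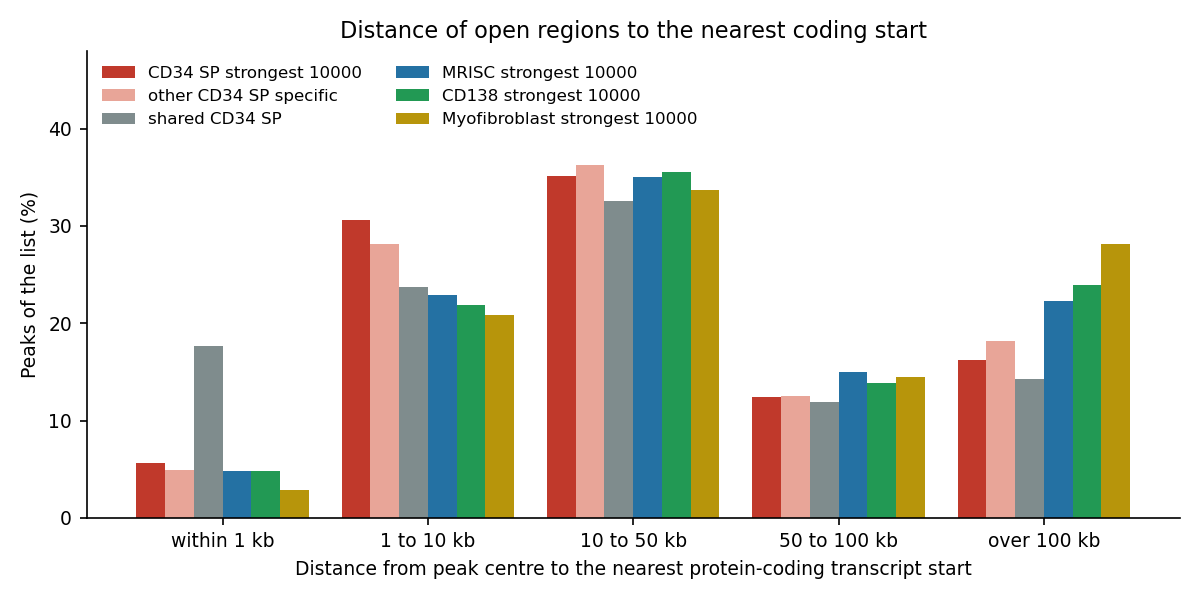
Share of open regions (y axis, % of each list) by distance from the centre of the region to the nearest protein-coding transcript start (x axis, 5 bins), for the 10000 strongest CD34 SP specific regions, the other specific and the shared CD34 SP regions, and the 10000 strongest specific regions of the other 3 populations. The CD34 SP set reached 30.6% between 1 and 10 kb and 16.2% beyond 100 kb, while shared regions alone had 17.6% within 1 kb.

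The members had a median width of 285 bp, from 184 to 1309 bp, close to the 290, 284 and 267 bp of the MRISC, CD138 and Myofibroblast sets, while the other CD34 SP specific regions were 106 bp wide. No member overlapped a region of another population, but many lay beside one. The median gap to a region of another population was 633.5 bp, and 43.2% were within 500 bp. A shared CD34 SP region was within 10 kb of 81.3% of the members. Of the members, 92.5% had a CD138 region within 10 kb, 89.5% a MRISC region and 87.7% a Myofibroblast region. These neighbour shares were not computed for other CD34 SP regions or for the genome. Whether they are particular to the members was therefore not tested. The full lists held 143393 regions in CD34 SP, 177038 in MRISC, 216790 in CD138 and 179331 in Myofibroblast, so the specific regions of CD34 SP were those left after comparison with longer lists.

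The members were more clustered along the genome than the strongest specific regions of the other populations. When neighbours separated by at most 10 kb were joined, 10.8% of the members (1079) fell in 289 clusters of 3 or more, while the shares were 4.40% for the MRISC set, 4.80% for the CD138 set and 1.87% for the Myofibroblast set. The largest cluster held 16 members, and the largest in those other sets held 6, 8 and 4 regions in the same order of populations. With joins of at most 5 kb the shares were 5.01% in CD34 SP and 2.20%, 2.06% and 0.55% in the others, and with 25 kb they were 23.99% and 14.6%, 13.2% and 7.07%. Most clusters were small, with 176 of 3 members, 67 of 4, 23 of 5 and 23 of 6 or more, and 71.8% of the members stood alone. A coding gene body held 70.3% of the clustered members and 59.0% of the others, and 140 of the 289 clusters (48.4%) lay wholly inside 1 coding gene. Clustered members were also nearer to a start, at a median of 11595 bp against 21194 bp for the others.

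The 10 clusters with most members were at Arid5b, Ugcg, Spdye4c, Timp3, Ereg, the Serpina3i and Serpina3g pair, the Bdkrb2 and Bdkrb1 pair, Ext1, Pdpn and Ube2d3. The cluster of 16 at Arid5b, which encodes a DNA-binding cofactor of a histone demethylase, spanned 51.3 kb (chr10:68106703-68157959) and lay inside the gene, between 1.06 and 29.8 kb from the nearest start. That stretch held 36 regions of the full CD34 SP list, and the full MRISC, CD138 and Myofibroblast lists had 20, 16 and 10. The cluster of 10 at Ugcg, the enzyme that makes glucosylceramide, spanned 34.4 kb (chr4:59193870-59228308) from 4.84 to 38.9 kb past the start. It held 28 full-list regions in CD34 SP, 12 in MRISC, 12 in CD138 and 5 in Myofibroblast.

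The cluster of 8 at Timp3, an inhibitor of metalloproteinases, began 23.6 kb past the start and overlapped the Timp3 body and the larger Syn3 gene on the opposite strand (chr10:86326350-86354472). The 8 at Ereg (chr5:91077662-91096849), which encodes the EGF receptor ligand epiregulin, followed the start at 3.51 to 22.0 kb. In that Ereg stretch the full CD34 SP list had 15 regions, of which 11 were specific, and no region was specific to any of the other 3 populations. At Pdpn, which encodes the gp38 surface protein used for the sort, 7 members spread over 16.0 kb (chr4:143261617-143277586). The sort took gp38-positive cells in all 4 populations. The full lists had 14 regions there in CD34 SP, 6 in MRISC, 1 in CD138 and 1 in Myofibroblast. Of the remaining clusters, 8 members lay at the genes of the B2 and B1 bradykinin receptors, 8 at the serine protease inhibitor genes Serpina3i and Serpina3g, 8 in Ext1, which encodes a heparan sulfate polymerase, and 7 at Ube2d3, which encodes a ubiquitin-conjugating enzyme. The AP-1 word was scarce in these clusters. It was absent from the 16 members at Arid5b, the 10 at Ugcg, the 8 each at Ereg, Bdkrb2 and Ext1, and the 7 at Ube2d3, and over all clusters of 3 or more 10.8% of the members held it against 16.6% of the members outside clusters.

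**Figure D2:**
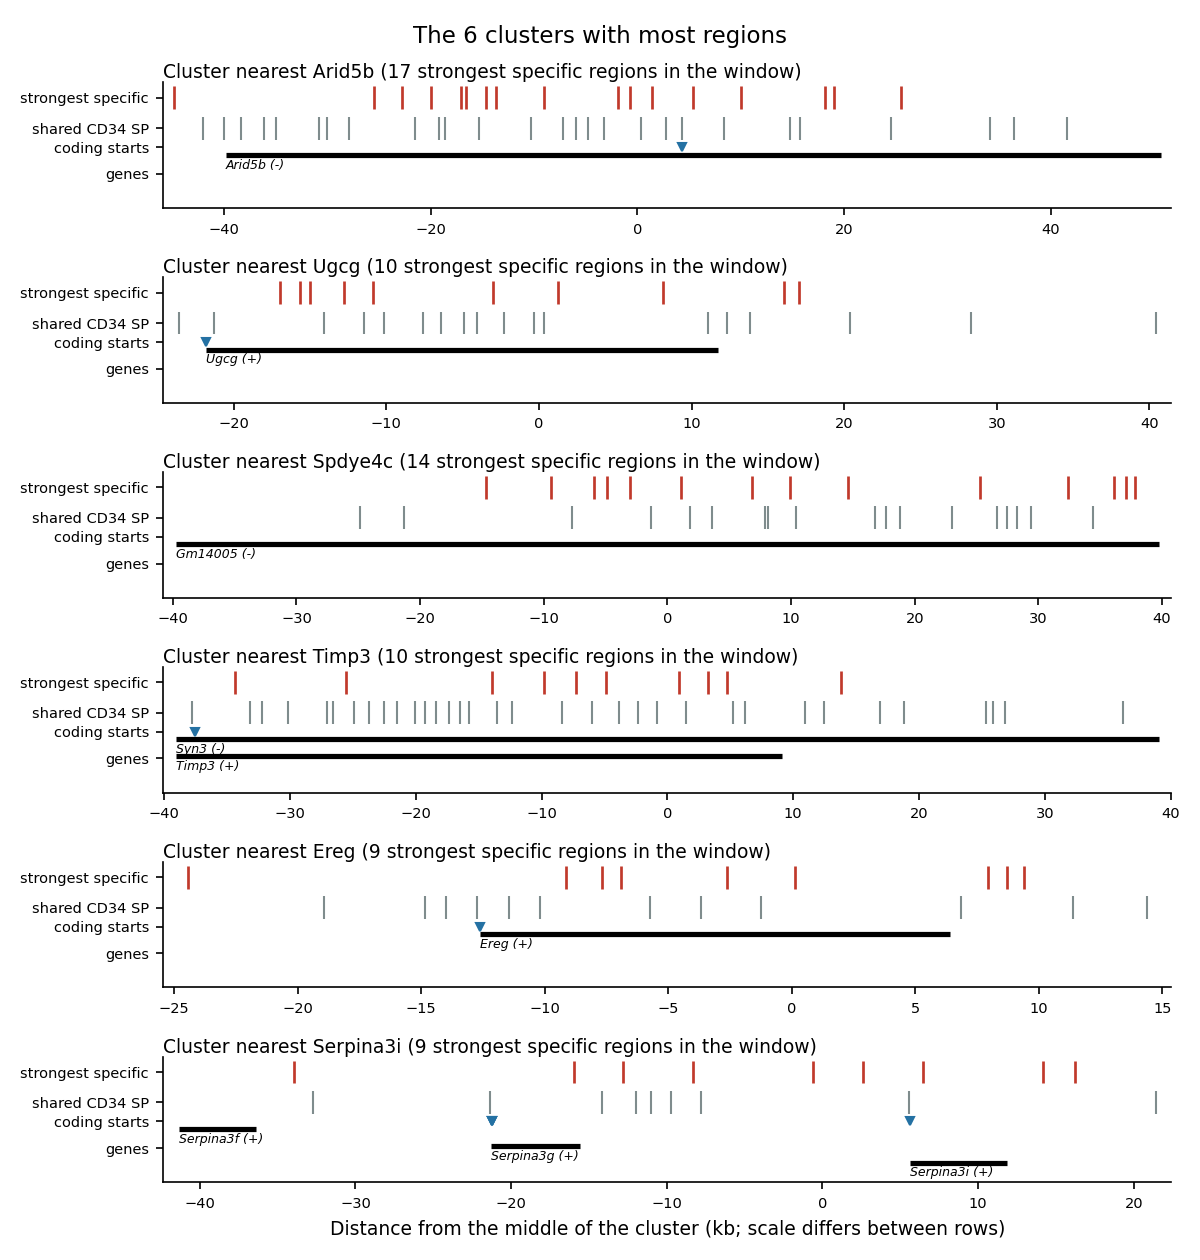
Positions of the strongest CD34 SP specific regions (red), of CD34 SP regions shared with another population (grey), of protein-coding transcript starts (blue triangles) and of gene bodies (black, strand in parentheses) around the 6 clusters with most members, in kb from the middle of each cluster (x axis, up to 25 kb beyond the cluster, scale differing between rows). The red marks lay among the grey ones, mostly inside the gene at Arid5b, Ugcg, Timp3 and Ereg, inside the lincRNA gene Gm14005 in the cluster nearest Spdye4c, and mostly between genes in the cluster nearest Serpina3i.

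Each member was assigned to the coding gene with the nearest start, and 5461 of 21670 coding genes (25.2%) were nearest to at least 1. Of these genes, 3349 had a single member, 998 had 3 or more (4.61% of coding genes) and 314 had 5 or more, which together held 2141 members (21.4%). The genes with most members were Arid5b with 21, Col5a1 and Spdye4c with 17, Zeb2 and Ext1 with 16, Zfp36l1 with 15, and Epas1, Rad51b, Pde4d and Rtl1 with 14. Man1a, Cxcl12 and Pik3r1 had 13, Timp3, Plpp3, Lrmda, Ugcg and Klf14 had 12, and Rbms3 and Arrdc3 had 11. Genes differ in the length of genome nearest to them. Members per Mb of genome nearest to the gene were 80.1 at Ugcg, 67.9 at Epas1, 67.3 at Col5a1 and 61.0 at Arid5b, against 8.04 at Zeb2 and 3.80 over the genome.

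Matrix, transcription factor and signalling genes were among them. Col5a1 encodes a chain of type V collagen, and 15 of its 17 members lay in the gene body, while the MRISC set also had 13 regions nearest to it and the CD138 and Myofibroblast sets had 0. Epas1 encodes the hypoxia-inducible factor HIF-2alpha, and it had 14 CD34 SP members, while the CD138 set had 2 regions there and the MRISC and Myofibroblast sets had 0. Zeb2 encodes a zinc finger repressor known for its part in mesenchymal transitions, and its counts were 16 in CD34 SP, 6 in MRISC, 5 in CD138 and 6 in Myofibroblast. Zfp36l1 encodes a protein that binds AU-rich mRNAs, and none of its 15 members lay in the gene: they reached from 22.4 kb upstream to 366 kb downstream. Cxcl12 encodes a chemokine of stromal cells, and 2 of its 13 members lay in the gene. The other genes include the phosphodiesterase gene Pde4d, the phosphoinositide 3-kinase subunit gene Pik3r1, the lipid phosphatase gene Plpp3 and the Golgi mannosidase gene Man1a. In all, 65 genes had 5 or more regions of both the CD34 SP and the MRISC set, out of 314 in CD34 SP and 304 in MRISC. The shared genes were 51 with CD138, out of 264, and 40 with Myofibroblast, out of 253. At 1 or more regions the sharing was nearly equal. Of the genes nearest to a member, 45.9% were also nearest to a MRISC set region, 44.4% to a CD138 one and 44.6% to a Myofibroblast one. Genes with 5 or more members had a median of 346 kb of genome nearest to them, against 46.1 kb for all genes. How much of the sharing comes from this length was not tested.

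Of the 20 genes with most members 3 had almost no transcript, and members of each lay over a non-coding gene with transcripts. Spdye4c had 0 UMIs in all kept cells, and 15 of its 17 members overlapped the lincRNA gene Gm14005, which had 61.8 counts per 1000000 pooled UMIs (CPM). Rtl1, an imprinted retrotransposon-derived gene, had 2 UMIs, and 5 of its 14 members overlapped the imprinted lincRNA gene Meg3, which had 655 CPM. Klf14 had 0 UMIs, and 8 of its 12 members, all upstream of it, overlapped the lincRNA gene Lncpint, which had 22.2 CPM. A count of 0 allows up to 0.0506 CPM by the exact 95% Poisson limit. The nearest coding start of a gene with at least 20 CPM was 287 kb (Anapc1), 684 kb (Wars) and 280 kb (Mkln1) from the middle member of these 3 groups.

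The 10 members with the highest scores, from 0.236 to 0.298, were nearest to Man1a, Mdh1, Neurod1, Pawr, Dnaic1, Atxn1, Rbm47, Slc30a4, Nmbr and Ddah1. The first of these was intergenic and 738 kb upstream of Man1a (chr10:54814580-54815220). The second lay 4070 bp into Mdh1, the cytosolic malate dehydrogenase gene, with an AP-1 word (chr11:21567892-21568354). The third lay 13.2 kb from the start of the neuronal factor gene Neurod1, which had 0 UMIs, inside an intron of the neighbouring gene Cerkl. None was in a promoter, and 4 of the 10 held the AP-1 word. The nearest genes of 2 of the 10, Neurod1 and Nmbr, had 0 CPM.

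Transcript levels of the nearest genes were read in the single-cell library. It held 11484 barcodes, and 11376 passed the filters of 500 or more genes and no more than 10% mitochondrial UMIs, with 72920197 UMIs and a median of 6052 per cell. With 1 library there was no test, and intervals cover counting error only. Counting 1 tag per transcript end is meant to make levels less dependent on transcript length, and whether it did was not tested. The 5459 genes nearest to at least 1 member and present in the matrix had a median of 13.8 CPM, against 0.699 CPM for the 16163 genes with none and 2.66 CPM for all coding genes. The level was higher the more members a gene had, with medians of 9.85 CPM at 1 member, 14.6 at 2, 24.9 at 3 to 4 and 44.2 at 5 or more. At 20 CPM or more were 72.9% of the genes with 5 or more members, against 21.8% of the genes with none. Genes with 5 or more regions of the other sets had lower medians, 14.4 CPM for MRISC, 11.3 for CD138 and 7.47 for Myofibroblast. Those genes also had more genome nearest to them, with medians of 476, 509 and 750 kb against 346 kb for CD34 SP. Pooled levels also depend on the mix of cells in the library. The part of either in the difference between sets was not tested.

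Gene size differed with the number of members, since the median gene length was 112 kb at 5 or more members and 14.0 kb at 0. Genes were not binned by gene length. They were divided into 4 equal bins by the length of genome nearest to them, and the medians had the same order in each. In the bin of the shortest lengths the medians were 42.9 CPM with 3 or more members (15 genes), 13.5 with 1 or 2, and 1.17 with none. In the bin of the longest lengths they were 29.4 with 3 or more (791 genes), 7.68 with 1 or 2, and 0.370 with none. Genes nearest to clustered members had a median of 44.4 CPM, against 12.8 CPM for the other nearest genes. At the level of members, 50.4% had a nearest gene with at least 20 CPM and 19.1% one under 1 CPM. Of the genes with 5 or more members 93.6% had a promoter open in all 4 populations, against 51.4% of the genes with none.

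**Figure D3:**
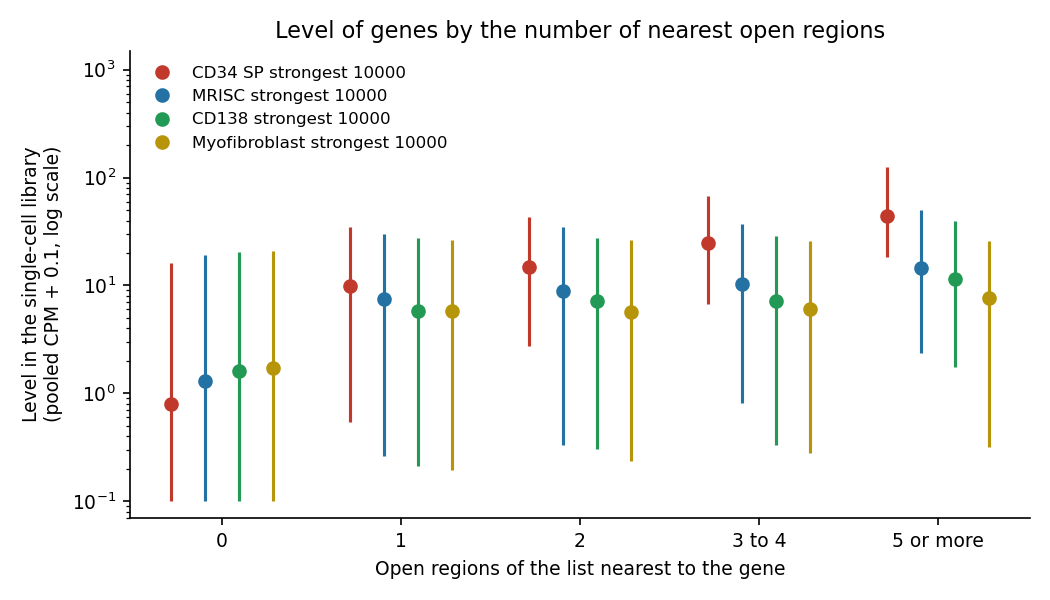
Level of protein-coding genes in the single-cell library (y axis, pooled CPM + 0.1, log scale) by the number of strongest specific regions nearest to the gene (x axis), for the sets of the 4 populations. Points are medians over genes and lines the interquartile range. For the CD34 SP set the median went up at each step to 44.2 CPM at 5 or more regions, while the median for Myofibroblast at 5 or more was 7.47 CPM.

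The cells were then divided by Cd34 and Cd81 transcripts. Cd81 encodes a surface protein that the sources used here do not name among the antibodies of the sort. Of 11 clusters, 7 were stromal by the absence of markers of other cell types. Clusters with pooled Cd34 above and Cd81 below the mean of all kept cells held 4995 cells and are called Cd34-high Cd81-low. A cluster of 1353 cells was Cd34-high Cd81-high, and the 4597 cells of the other 4 clusters were Cd34-low. Pooled Cd34 was 637 CPM in Cd34-high Cd81-low cells, 645 CPM in Cd34-high Cd81-high cells and 187 CPM in Cd34-low cells. Pooled Cd81 was 74.9, 783 and 34.1 CPM in the same 3 groups. Whether these groups match the sorted CD34 SP cells was not tested, since the sources used here do not give the full gates. In addition, 1 of the 2 clusters of the Cd34-high Cd81-low group had Sdc1, the gene of CD138, at 127 CPM, above the mean of 104 CPM.

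Few genes were higher in Cd34-high Cd81-low cells. Of 6038 genes with at least 20 CPM in either side, 40 (0.662%) were 2-fold or more higher there than in the other stromal cells, and 33 of these were nearest to a member. Of the 2392 such genes with a member, 1.38% were higher, and of the 241 with 5 or more members 2.90% (7 genes), against 0.192% of the 3646 with none. The same share for genes with 5 or more regions was 1.45% for the MRISC set (2 of 138), 2.73% for CD138 (3 of 110) and 3.45% for Myofibroblast (3 of 87). These counts are too small to rank the sets. At 3 to 4 regions the share was 3.03% for CD34 SP (12 of 396), 1.49% for MRISC, 1.53% for CD138 and 1.77% for Myofibroblast. At 1 or more regions the other sets had 1.06%, 1.27% and 1.25% in the same order. Among Cd34-high Cd81-high cells 5.04% of the genes with 5 or more CD34 SP members were higher. The MRISC set had 28.3% there, and all genes compared had 4.56%. In every comparison of stromal groups, genes under 20 CPM on the lower side entered only through the side where they were high. Their part in the shares was not counted.

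Of the genes with 3 or more members that were higher in Cd34-high Cd81-low cells, those among the 5 leading genes of its clusters (Sfrp2, Spock3, Opcml and Eln) are left out here, and the values of the others are descriptions, since the clusters were made from the same counts. Ddah1, an enzyme that breaks down methylated arginines and the nearest gene of 1 of the 10 strongest members, had 78.6 CPM (95% interval 75.4 to 81.8) in Cd34-high Cd81-low cells against 16.2 CPM in the other stromal cells. The ephrin ligand gene Efnb2 with 8 members had 25.9 against 6.40 CPM, and the ephrin receptor gene Epha7 with 9 had 23.2 against 7.21 CPM. Ddah1, Efnb2 and Epha7 were under 20 CPM in the other stromal cells. They entered the comparison only through the group where they were high. The transcription factor genes Isl1 and Osr1, with 6 members each, had 89.1 against 33.2 CPM and 363 against 176 CPM. Their levels were uneven among the other stromal cells. Isl1 had 70.7 CPM in a cluster led by Myh11 and Actg2 and 15.3 CPM in Cd34-high Cd81-high cells. Osr1 had 335 and 190 CPM in the same order.

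**Figure D4:**
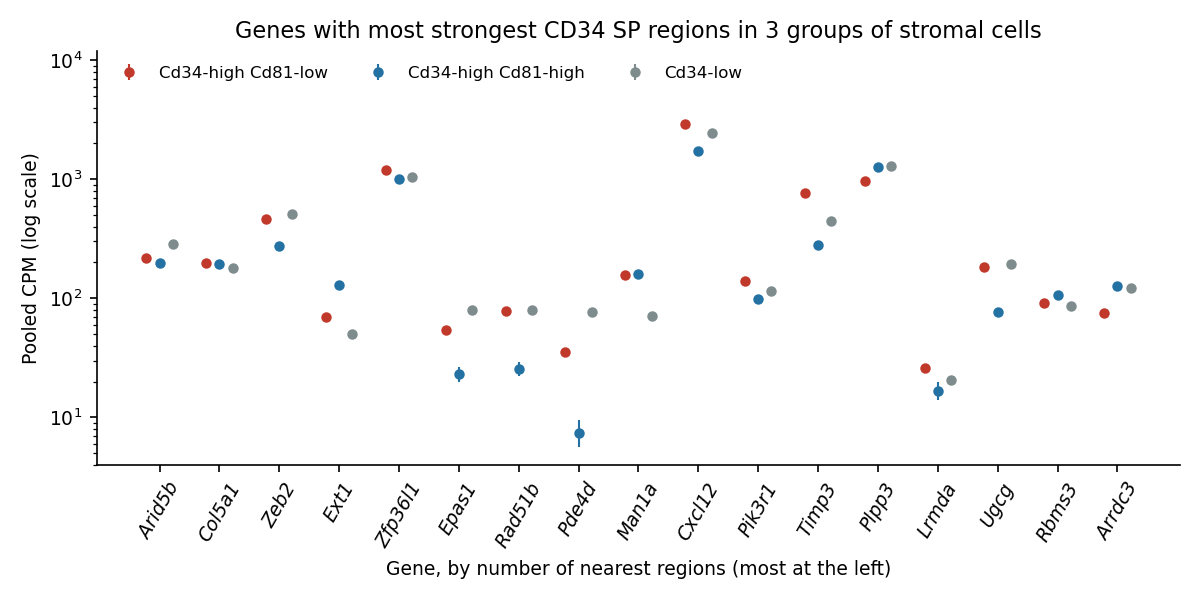
Level (y axis, pooled CPM on a log scale, with exact 95% Poisson intervals, often smaller than the point) of 17 of the 20 genes with most members in Cd34-high Cd81-low, Cd34-high Cd81-high and Cd34-low stromal cells. The 3 genes under 1 CPM are left out, and no gene was 2-fold higher in Cd34-high Cd81-low cells than in the other stromal cells, the nearest being Timp3 at 1.86-fold.

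Of the 20 genes with most members, 17 had at least 22.2 CPM over all kept cells, and Spdye4c, Klf14 and Rtl1 had 0 to 2 UMIs. None of the 17 reached 2-fold in Cd34-high Cd81-low cells over the other stromal cells. Timp3 had 767 CPM in Cd34-high Cd81-low cells, 278 CPM in Cd34-high Cd81-high cells and 447 CPM in Cd34-low cells, and its 1.86-fold was the largest. Arid5b had 216, 200 and 289 CPM in the same order of groups, and Col5a1 had 199, 194 and 180 CPM. Cxcl12 was the most abundant, with 2886, 1733 and 2449 CPM. Ext1 was highest in Cd34-high Cd81-high cells, with 69.8, 128 and 49.9 CPM, and Pde4d lowest there, with 35.1, 7.34 and 76.3 CPM.

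A stromal cluster of 557 cells, part of the Cd34-low group and led by Mmp10, Saa3 and Lcn2, had high levels of several genes with members. Of 6062 genes compared 203 (3.35%) were 2-fold or more higher in it than in the other stromal cells. Among the 240 compared genes with 5 or more members the share was 8.75% (21 genes), against 1.45% of those with 5 or more MRISC regions, 12.4% for CD138 and 5.19% for Myofibroblast. These shares and the levels that follow are descriptions, since the cluster was made from the same counts. Ptgs2, the inducible cyclooxygenase gene with 6 members, had 606 CPM (583 to 630) in the cluster against 92.6 CPM in the rest of the stroma. Ereg with 9 members had 1305 against 351 CPM, and Serpina3g had 855 against 240 CPM, and both genes had clusters of members. Tnfaip3, an inhibitor of NF-kB signalling with 5 members, had 242 against 49.6 CPM, and Sod2, the mitochondrial superoxide dismutase gene with 3, had 605 against 164 CPM. In the whole Cd34-low group 8.26% of the 242 compared genes with 5 or more members were higher, against 3.16% of all genes compared there, and in the cluster led by Myh11 and Actg2, the smooth muscle myosin and actin genes, 11.1% of 234 were, against 7.31%. For the Myofibroblast set the share in that last cluster was 27.1%. The Mmp10 and Saa3 cells had Cd34 at 169 CPM and Sdc1 at 406 CPM, against 430 and 104 CPM over all kept cells. Their Cd34 level depended on the clustering, since at a resolution of 1.0 the cluster of 479 cells led by Saa3, Lcn2, Cxcl5, Cemip and Mmp10 had Cd34 at 386 CPM and Sdc1 at 358 CPM.

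The members were also counted over 16 lists of genes by role, beside 25.2% of all coding genes with at least 1 member and 3.80 members per Mb. List totals were not computed for the sets of the other populations. Whether they are particular to the CD34 SP set was therefore not tested. The median number of members per gene was 3.0 for the matrix genes, 2.5 for the transcription factors, 2.0 for the NF-kB and growth factor lists, 0.5 for the AP-1 subunits and 0 for all coding genes. Of 33 matrix genes 29 had a member (87.9%), with 133 members in all and a density of 16.95 per Mb. Besides Col5a1, Col4a1, Fn1 and Postn had 9 each, Col18a1 and Lamc1 8, Col15a1 and Lama2 7, and Thbs2 6, and these encode collagen and laminin chains, fibronectin, periostin and a thrombospondin. Col3a1, Col12a1, Tnc and Lama4 had 5, while Col1a1 had 1 and Col6a1 and Fbn1 had 0. Thbs2 had 7 regions in the MRISC set, and Tnc had 6 in the Myofibroblast set. The stromal groups differed in the levels of these genes to varying degrees. Fn1 had 987 CPM in Cd34-high Cd81-low cells, 716 CPM in Cd34-high Cd81-high cells and 812 CPM in Cd34-low cells, and Postn had 1133, 516 and 1233 CPM in the same order. Thbs2 had 7.01, 57.7 and 27.6 CPM, and Col6a3, with 3 members, had 49.4, 315 and 204 CPM, so both were lowest in Cd34-high Cd81-low cells. Of 18 metalloproteinase and TIMP genes 10 had a member, mainly Timp3.

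Of 30 mesenchymal transcription factor genes 26 had a member, with 135 in all. Besides Arid5b and Zeb2, Tcf4 had 10, Klf6 9, Runx1 and Runx2 8 each, and Nfia, Cebpb, Foxf1 and Osr1 6 each, and Tcf7l2, Nfix and Klf4 had 5 each. Runx1 and Runx2 encode runt factors, and their 8 members each compare with 4 and 0 in MRISC, 6 and 5 in CD138, and 4 and 1 in Myofibroblast. Klf4, in contrast, had 5 members in CD34 SP and 14 regions in MRISC. Tcf7l2 had 8 regions in MRISC, 5 in CD138 and 9 in Myofibroblast, and Tcf4 had 0, 10 and 3 in the same order. Density was 9.80 per Mb for this list, and the stretch of genome nearest to one of its genes had a median of 329 kb, against 46.0 kb for all coding genes.

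The density was highest at NF-kB genes, with 23.7 members per Mb. Of 13 genes 9 had a member, among them Nfkb1, a subunit gene, with 8, the inhibitor gene Tnip1 with 7 and Tnfaip3 with 5. In the MRISC, CD138 and Myofibroblast sets Nfkb1 had 7, 2 and 0 regions, Tnip1 0, 1 and 1, and Tnfaip3 3, 3 and 0. Nfkb1 had 51.2 CPM in Cd34-high Cd81-low cells, 76.5 CPM in Cd34-high Cd81-high cells and 56.1 CPM in Cd34-low cells. Of 18 genes of the JAK-STAT and IL-6 family 12 had a member, with 18.7 per Mb. The receptor genes Lifr and Osmr had 6 and 5, and the kinase gene Jak1 had 6. Jak1 had 6, 1 and 2 regions in the other sets in the same order, and Lifr 1, 2 and 0. Osmr had 0 regions in each of the other 3 sets, at a level of 48.9 CPM over all kept cells. Of 25 inflammation-associated fibroblast genes found, 14 had a member, with 18.4 per Mb, and Cxcl12, Pdpn, Has2 and Ptgs2 led with 13, 8, 7 and 6. Has2 encodes a hyaluronan synthase. By contrast Saa3, Lcn2, Il11, Mmp3 and Timp1 had 0.

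Of 29 ligands and antagonists of the stem cell niche 17 had a member, at 8.21 per Mb. Ereg and Bmp5 had 9 each, Wnt4, Bmp7 and Sfrp1 6 each, and Bmp4 4. Bmp5 had 87.1 CPM in Cd34-high Cd81-low cells, 20.8 CPM in Cd34-high Cd81-high cells and 137 CPM in Cd34-low cells, and Wnt4 had 250, 34.4 and 198 CPM in the same order. Of the R-spondin genes, which amplify Wnt signals, Rspo3 had 1 member and Rspo1, Rspo2 and Rspo4 had 0, and the BMP antagonist gene Grem1 had 2. Rspo3 had 9.21 CPM in Cd34-high Cd81-low cells, 85.8 CPM in Cd34-high Cd81-high cells and 20.3 CPM in Cd34-low cells. Grem1 had 169, 397 and 155 CPM in the same groups. The MRISC set had 4 regions at Rspo3, 3 at Rspo2 and 2 at Grem1.

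Of 21 growth factor and receptor genes of mesenchyme 14 had a member, with Fgfr2 at 10, Tgfbr3 at 7, Tgfbr2 at 6, and Hgf and Igf1r at 5. Tgfbr2 had 5 regions in the MRISC set, 6 in CD138 and 4 in Myofibroblast. Hgf, the hepatocyte growth factor gene, had 3 of 5 members with the AP-1 word. Its levels were 105 CPM in Cd34-high Cd81-low cells, 37.4 CPM in Cd34-high Cd81-high cells and 66.5 CPM in Cd34-low cells. Of 26 glycolysis and hypoxia genes 16 had a member, with Epas1 at 14, the hexokinase gene Hk2 at 8 and Vegfa at 5. Vegfa had 6 regions in the MRISC set. Of 13 hyaluronan and heparan sulfate genes 8 had one, with Ext1 at 16, the hyaluronan receptor gene Cd44 at 9 and Has2 at 7. Of the 10 AP-1 subunit genes 5 had a member, with Fosl2 and Jun at 3 each, and Fosb, Junb and Jund had 0. Transcript levels of the subunits differed widely. Fosl1, Batf and Batf3 had 3.43, 3.85 and 9.64 CPM over all kept cells, while Fos had 2808 CPM. By group Fos was at 1968 CPM in Cd34-high Cd81-low cells, 6050 CPM in Cd34-high Cd81-high cells and 2802 CPM in Cd34-low cells.

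Of 8 surface marker genes, which are those of the sort and population names together with Cd81, 7 had a member. Pdpn had 8, Thy1, the gene of CD90, had 4, Cd34 had 2, and Cd81, Sdc1, Ptprc and Pecam1 had 1 each, while Epcam had 0. Cd34 had 0 regions in the MRISC set, 3 in CD138 and 0 in Myofibroblast. Among markers of other cell types, 2 of 12 leukocyte genes (16.7%), 4 of 8 endothelial genes (50%), 3 of 8 epithelial genes (37.5%) and 4 of 15 muscle, pericyte, glial, mesothelial and Cajal cell genes (26.7%) had a member, beside 25.2% of all coding genes. Their densities were 2.12, 2.66, 6.55 and 6.51 per Mb, so the leukocyte and endothelial lists lay below the 3.80 per Mb of the genome and the other two above it. The only one of these with 3 or more was Kit, with 4.

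Sequence words were searched on both strands in the central 200 bp of each region, 26 in all, and compared with windows 2 kb to either side. The AP-1 word TGAGTCA was in 15.9% of the members (1594) against 3.48% of the flanking windows. It was in 7.64% of the other CD34 SP specific regions, 13.4% of the shared CD34 SP regions and 12.0% of all CD34 SP regions. The other specific regions had a median width of 106 bp, so the window of 200 bp often reached beyond them. The strongest sets of the other populations had 10.9% in MRISC, 6.17% in CD138 and 5.06% in Myofibroblast. By score, the fifth of the members with the lowest scores had 11.3% and the fifth with the highest 22.7%, with 14.0%, 14.6% and 17.1% between. The share was 18.1% in members 500 bp or more away from a region of another population and 13.2% in those nearer, and 11.6% in promoters. It was 10.0% over the 279 members of the 20 genes with most members and 16.6% in members that were the only one at their gene. Arid5b, Col5a1, Zeb2, Pde4d, Ugcg, Klf14 and Arrdc3 had no member with it, while Cxcl12 and Rbms3 had 4 each.

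The E-box CAGCTG was in 1900 members (19%) and 9.50% of the flanks. It was in 13.3% of the MRISC, 15.4% of the CD138 and 10.8% of the Myofibroblast set, and in 19% of the shared CD34 SP regions. The form CAGGTG went the other way, with 10.9% of the members against 13.8% of the flanks, and 18.7% in CD138. Members with the AP-1 word held CAGCTG in 15.4% and members without it in 19.7%. The TEAD word GGAATG, bound by the factors of the Hippo pathway, was in 15.6% of the members and 10.7% of the flanks, and its shares were 14.1% for the MRISC set, 10.3% for the CD138 set and 12.5% for the Myofibroblast set. A CTCF word was in 1.29% of the members, against 0.30% of the flanks and 3.19% of shared regions. The RUNX word TGTGGTT (5.28% against 5.42% of flanks), the GATA word AGATAA (9.82% against 11.2%) and the hypoxia element ACGTGC (2.46% against 2.42%) were near or below the flanks. The RUNX word was in 8.42% of the CD138 set. A NF-kB word was in 0.30% of the members and 0.150% of the flanks. A word is shared by a family of factors, and its presence is not a measurement of binding. The GC content was 47.3% in the members and 45.3% in the flanks, and soft-masked repeats took 14.6% against 24.3%, and their part in the word shares was not tested.

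**Figure D5:**
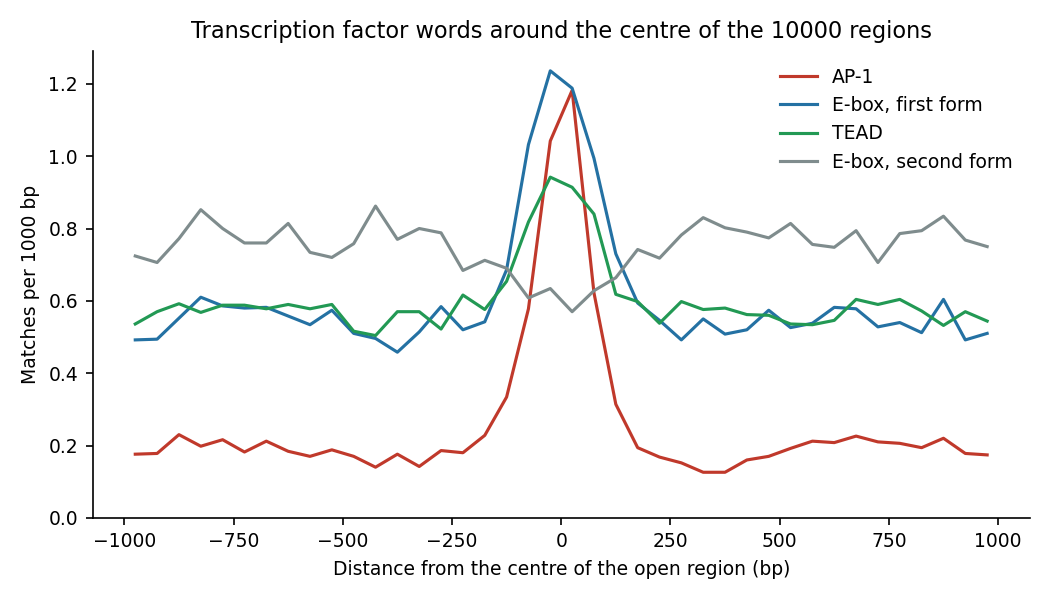
Matches per 1000 bp (y axis) of 4 words in bins of 50 bp around the centre of the 10000 members (x axis, bp), for AP-1 (TGAGTCA), the E-box CAGCTG (first form), the TEAD word GGAATG and the E-box CAGGTG (second form). AP-1 reached 1.18 per 1000 bp beside the centre against 0.170 to 0.230 beyond 500 bp, CAGCTG reached 1.24 against 0.492 to 0.610, and CAGGTG dipped to 0.570 at the centre.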

How the data were processed

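Open regions came from 8 ATAC-seq libraries (4 populations with 2 libraries each) and transcripts from 1 single-cell library. The authors deposited peak lists with a score per peak. The submitters' processing notes name bcl2fastq, bedtools and mm10. What the score means, which program called peaks and how libraries were joined is not given in the sources used here, and read depth is unknown. The deposited single-cell matrix holds UMI counts per gene and barcode from Cell Ranger (3.0.0, per the file headers) on 10x 3' version 2 chemistry, per the labels' protocols.

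The members were the 10000 highest scores on 20 chromosomes. Distances run from the peak centre to protein-coding transcript starts of GENCODE vM21 (GRCm38, positions counted from 1), and each member went to the gene with the nearest start. Clusters joined peaks with gaps of at most 10 kb and held 3 or more. Words were searched in the central 200 bp of the GRCm38 sequence. A promoter counted as open in a population when its full list had a peak within 1 kb of a coding start of the gene. Counts of 11376 cells, scaled to 10000 per cell, were log-transformed, and 2000 variable genes, 30 components, 15 neighbours and Leiden resolution 0.5 (scanpy 1.11.5, leidenalg 0.10.2) gave 11 clusters. Clusters under 50 cells, or with 2 or more markers of another cell type at 5-fold and 20 CPM, were left out. Doublets were neither called nor removed. Levels are CPM of pooled counts, and their 95% Poisson intervals are exact. A gene was called higher at 2-fold with at least 20 CPM.

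Named genes were the 20 with most members, those of the 10 strongest members and of the 10 largest clusters, and list genes with 5 or more members, with the surface markers, R-spondins, Grem1 and Ptgs2 in any case. Other named genes were chosen after their values were seen. The members, lists and words were chosen with earlier results of these data known. Distance, overlap, cluster and word functions were tested on simulated data. No test was made, because the score chose the members, each population is 1 list and the single-cell data are 1 library. Alternatives changed the promoter width, gap, number of peaks, word window, gene filter, fold and clustering.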

Additional observations from a re-analysis of the deposited data

How the results depend on the processing

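No paired analysis was possible because no result comes from a test, and each population is 1 list made from its 2 libraries, so leaving out a replicate was not possible either. With the 5000 strongest peaks in place of 10000, the promoter share was 5.08%, the median distance 20986 bp, the share in clusters 5.40%, the AP-1 share 19% and the median level of nearest genes 15.6 CPM. With 20000 peaks the share in clusters was 19.045%, the AP-1 share 12.5% and the median level 11.1 CPM. Members 500 bp or more from another population had a promoter share of 2.61% and a median distance of 23892 bp. The starts of all annotated genes gave 11.5% and 7638 bp, and a promoter of 2 kb gave 12.4%. The share in clusters was 5.01% with a gap of 5 kb, 23.99% with 25 kb and 2.83% for clusters of 5 or more. The AP-1 share was 20.4% in the central 400 bp and 19.4% in whole peaks. The median level was 30.4 CPM for genes with 3 or more members, 18.8 CPM for genes with a member within 10 kb and 23.8 CPM for genes with at least 1 CPM. A fold of 1.5 raised the genes higher in Cd34-high Cd81-low cells to 103, against 33. In the other alternatives tried (20000 peaks for promoter share and distance, distance from the edge, AP-1 outside promoters, all barcodes or stromal clusters for the level, clustering resolution 1.0 and 5 CPM for the genes), values stayed within the interval of the reported value or, for counts, within 1.5 times. Depth limits the single-cell levels to counting error, and peaks have no measure of depth.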

Other observations

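Chromosome X held 300 of the 10000 members, or 11.01% of the CD34 SP regions on X, against 6.90% of those on the autosomes. The MRISC set had 6.32% on X and 5.64% on the autosomes, while the CD138 set had 2.73% and 4.64% and the Myofibroblast set 2.89% and 5.60%. Single autosomes lay between 5.31% (chromosome 19) and 7.51% (chromosome 12) in the CD34 SP set. By length, X had 1.75 members per Mb, and the autosomes had 3.08 (chromosome 14) to 5.06 (chromosome 11). All ATAC-seq mice were male per the labels.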
